A study of Mus musculus with 10 samples.

Results

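The myosin light chain genes Myl1, Mylpf, Myl2, Myl3, Myl6b and Myl4 and the light chain kinase genes Mylk, Mylk2, Mylk3 and Mylk4 were followed in adult mouse leg muscle. These 10 genes were taken by their symbols from the 19938 genes that had a probe set of their own on Affymetrix Mouse Gene 1.0 ST arrays, and each of the 10 was read by exactly 1 probe set. By class they held 2 fast light chains (Myl1 and Mylpf), 3 slow light chains (Myl2, Myl3 and Myl6b), 1 developmental light chain (Myl4) and 4 kinases.

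The study asked how fast and slow muscle genes of fast fibers respond in cSix1 KO mice and after knockdown of linc-MYH, a long noncoding RNA transcribed at the fast myosin heavy chain locus. In gastrocnemius, a calf muscle, 3 arrays of cSix1 KO mice were set against 3 arrays of control mice whose labels give a wild type genotype. The cSix1 KO mice carried a floxed allele and HSA-CRE, a Cre recombinase under the human skeletal actin promoter, so the deletion was meant for muscle fibers and not for the other cells of the muscle. In the shin muscle tibialis anterior (TA), made mostly of fast fibers, 2 arrays of fibers that received shlinc-MYH, an shRNA that targets linc-MYH, were set against 2 with a control vector; 10 µg of plasmid had been electroporated, and fibers with GFP were dissected 2 weeks later. The labels give an age of 8 weeks for all 10 samples and the strain as C56BL6N, and the methods give 8 weeks as the age at electroporation, with an older age in another sentence on in vivo transfections. For such experiments the methods name an shRNA against LacZ in the opposite leg as the control. The labels and the methods do not say that the gastrocnemius arrays came from separate mice, so their p-values may measure technical spread only. linc-MYH had no probe set of its own among those used. The targeted genes were not analysed here, so the labels were not checked through them.

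Muscle myosin is built of heavy chains, whose heads pull on actin, and of light chains wrapped around the neck of each head. The essential, or alkali, light chains (encoded by Myl1, Myl3, Myl4 and Myl6b) stiffen this neck, and the regulatory light chains (encoded by Mylpf and Myl2) carry a serine that light chain kinases phosphorylate. The kinases are switched on by calcium-bound calmodulin, and in skeletal muscle phosphorylation of the regulatory chain raises force at low calcium, as in the potentiation of a twitch after activity. Fast fibers use the products of Myl1 and Mylpf, slow fibers those of Myl2, Myl3 and Myl6b, and Myl4 encodes the chain of embryonic muscle and of the atria of the heart.

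The values were log2 signals. The 4 TA arrays shared one range of signals and the 6 gastrocnemius arrays a higher one, with medians over genes between 5.26 and 5.32 in TA and between 6.96 and 7.04 in gastrocnemius, so no level was compared between the muscles. A mean of 7 markers of skeletal muscle fibers lay between 12.17 and 12.21 with shlinc-MYH and between 12.30 and 12.37 in control TA. The 7 were Ckm, Acta1, Mb and the fast fiber genes Tnnt3, Tnni2, Pvalb and Myh4, so the mean also follows fast fiber genes. In gastrocnemius this mean lay between 13.41 and 13.49 in cSix1 KO and between 13.57 and 13.61 in controls. It was thus below the controls in both muscles, while 0 of the 7 passed the test in either. All cSix1 KO arrays were below all controls in 5 of the 7, Ckm and the fast fiber genes, against 9.85% of all genes. Acta1 and Mb overlapped between the gastrocnemius groups, with log2 fold changes of -0.0080 and -0.020. Both shlinc-MYH arrays were below both controls in 2 of the 7, against 23.0%. Groups were compared with limma, with Benjamini-Hochberg adjusted p-values over all genes and a threshold of 0.05. These are bulk samples, in which fewer cells of a type and less RNA per cell cannot be told apart.

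In cSix1 KO gastrocnemius the 3 slow light chain genes rose and the kinase genes Mylk2 and Mylk4 fell. The other 5 genes did not pass the test, among them both fast light chains and Myl4. The 3 that rose compare with a background of 0.908% of all genes called higher, and the 2 that fell with 0.833% called lower. All 3 cSix1 KO arrays lay above all 3 control arrays in 3 of the 10 genes and below them in 3, against 11.0% and 9.85% of all genes. In TA with shlinc-MYH 0 of the 10 genes passed in limma, in a comparison in which 0.0150% of all genes did. At an unadjusted p under 0.05 there were 3 in TA, Myl4, Mylk and Mylk4, beside 8.65% of all genes. In Myl6b, Myl4 and Mylk2 the shlinc-MYH arrays were both above the controls, which was so in 16.3% of all genes, and in Mylk and Mylk4 they were both below, as in 23.0% of all genes.

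**Figure D1:**
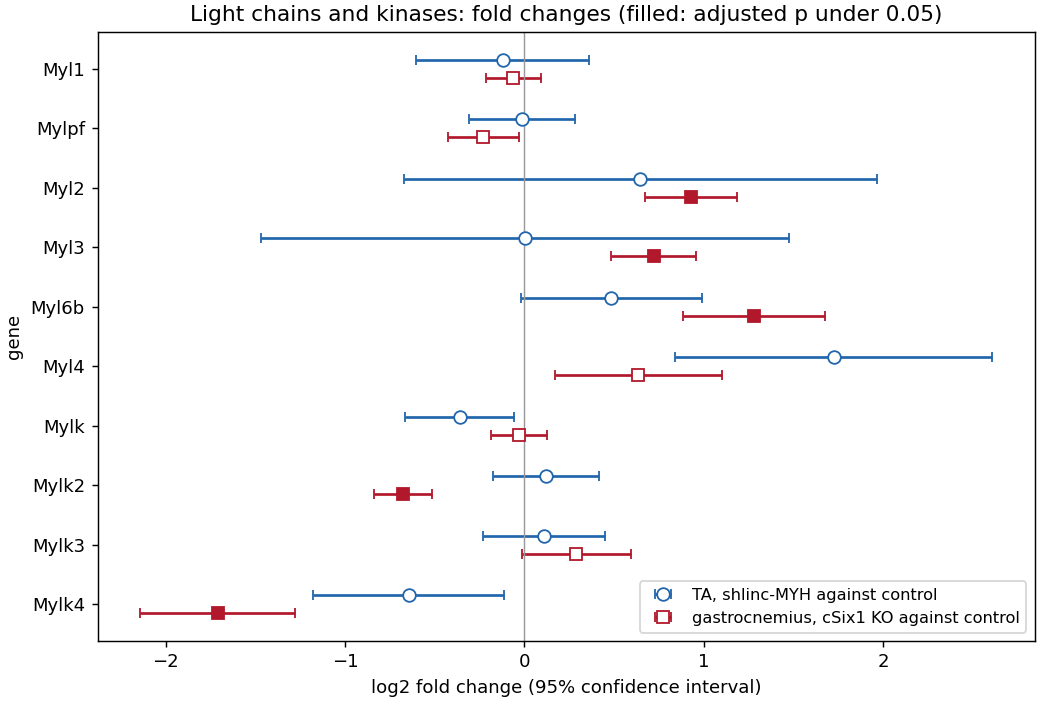
Log2 fold change of each of the 10 genes (horizontal axis, log2 scale) in shlinc-MYH against control TA (circles) and in cSix1 KO against control gastrocnemius (squares), with 95% confidence intervals from limma; filled symbols passed at an adjusted p under 0.05. The filled symbols are Myl2, Myl3, Myl6b, Mylk2 and Mylk4 in gastrocnemius, and the intervals are wider in TA for most genes.

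Myl6b, which encodes an essential light chain of slow muscle, had the largest rise of the light chains in cSix1 KO gastrocnemius. Its signal was 9.05, 8.63 and 8.31 on the cSix1 KO arrays and 7.39, 7.25 and 7.49 on the control arrays. The control signal of Myl6b in gastrocnemius was only at percentile 56.6 of all genes, against 96.9 for Myl2 and 96.6 for Myl3. All 3 cSix1 KO arrays were higher than all controls, with replicate 3 the nearest to them. The mean rose 2.43-fold, a log2 fold change of 1.28 (standard error 0.17, 95% interval 0.89 to 1.68, n = 3 against 3), with adjusted p = 0.0147 from limma.

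Myl2, the slow regulatory light chain that is also the ventricular chain of the heart, read 12.12, 12.20 and 11.83 in cSix1 KO gastrocnemius and 11.20, 11.18 and 10.97 in controls. The groups did not overlap, and the lowest cSix1 KO array was again replicate 3. It rose with a log2 fold change of 0.93 (standard error 0.11, 95% interval 0.67 to 1.19), 1.90-fold, with adjusted p = 0.0103 from limma. Myl3, the essential light chain of slow muscle and of the ventricles, read 11.60, 11.91 and 11.65 against 10.99, 10.88 and 11.12. Here replicate 2 of the cSix1 KO arrays was the highest and replicates 1 and 3 were close together, all of them above the controls. This was a log2 fold change of 0.72 (standard error 0.10, 95% interval 0.49 to 0.96), 1.65-fold, with adjusted p = 0.0183 from limma.

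Averaged over the 3 slow light chains, the cSix1 KO arrays lay 1.09, 1.08 and 0.76 above the control mean on the log2 scale, and the controls lay between -0.062 and 0.031. The median log2 fold change of the class was 0.93, beside 0.0080 over all genes. Without cSix1 KO replicate 2 none of the 3 passed in limma (adjusted p = 0.0531 for Myl2, 0.0596 for Myl3 and 0.0654 for Myl6b), while the log2 fold changes were 0.86, 0.63 and 1.30. Without control replicate 1 or control replicate 2 Myl3 (adjusted p = 0.0748 and 0.0809) and Myl6b (0.0576 and 0.0722) did not pass, with log2 fold changes of 0.72 and 0.66 for Myl3 and 1.29 and 1.22 for Myl6b. In a fit of all 10 arrays, in which the spread of TA enters, Myl2 (adjusted p = 0.303) and Myl3 (adjusted p = 0.535) did not pass.

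**Figure D2:**
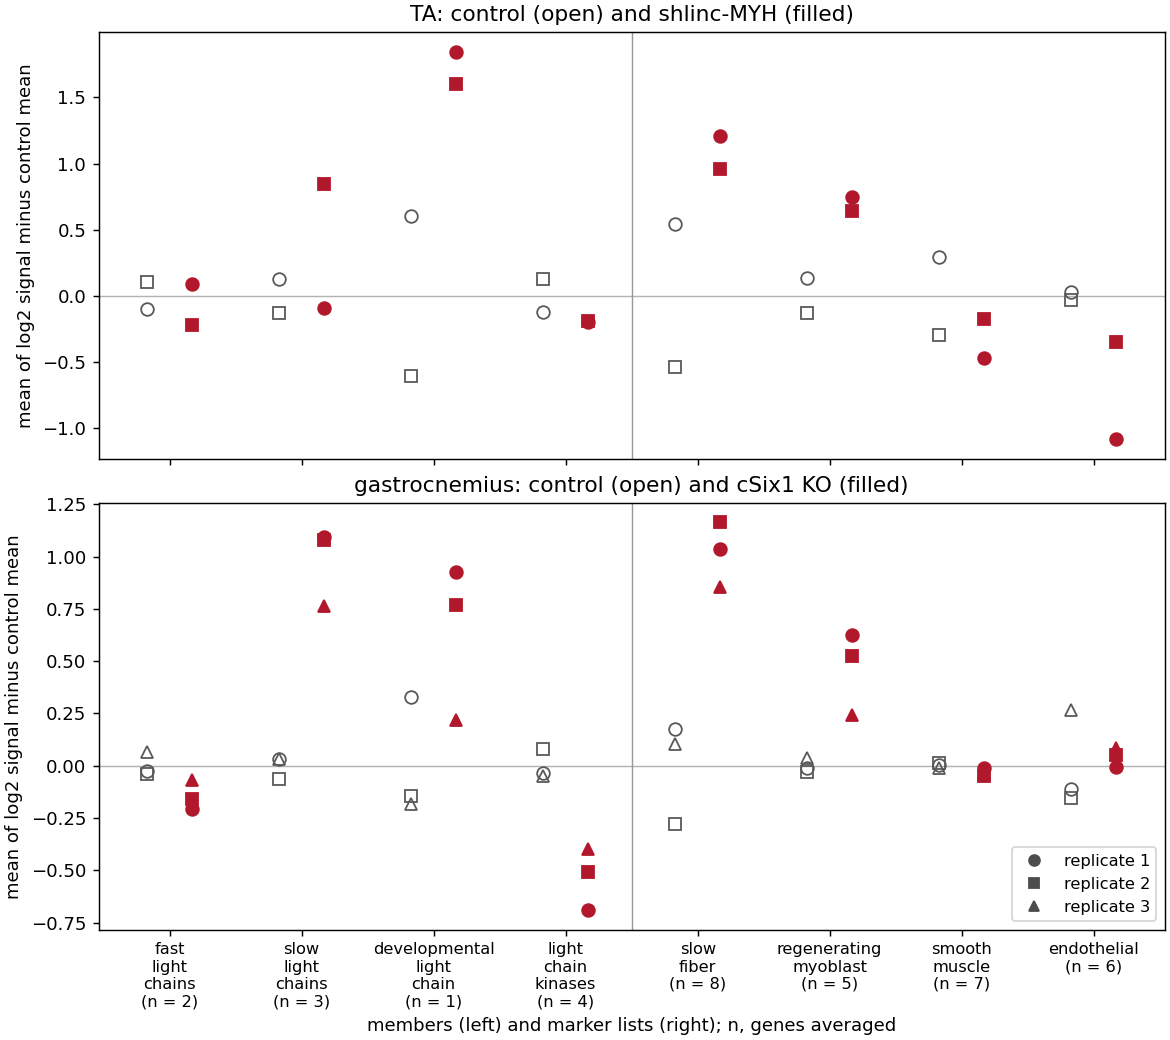
Mean log2 signal of each class of the 10 genes (left of the line) and of 4 marker lists (right; n is the number of genes averaged) minus the control mean of the same muscle (vertical axis, log2 scale) on every array, with open symbols for control arrays and filled symbols for shlinc-MYH or cSix1 KO arrays; circles, squares and triangles are replicates 1, 2 and 3. The 3 cSix1 KO arrays stand at 0.76 to 1.09 for the slow light chains, while the shlinc-MYH arrays stand at -0.093 and 0.85.

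In TA the slow light chains were spread widely among arrays of the same group. Myl3 read 7.30 and 9.40 with shlinc-MYH and 8.20 and 8.49 in controls. The shlinc-MYH arrays lay on either side of the controls, and the log2 fold change was 0.0020 (standard error 0.61, 95% interval -1.47 to 1.47, n = 2 against 2; adjusted p = 1.00 from limma). It was -1.05 without shlinc-MYH replicate 2 and 1.05 without shlinc-MYH replicate 1. Myl2 read 7.12 and 8.10 against 7.78 and 6.15. The groups overlapped, and the control arrays were farther apart (1.62) than the shlinc-MYH arrays (0.98). Its difference in means was 0.65 on the log2 scale (standard error 0.55, 95% interval -0.67 to 1.97; adjusted p = 0.796), and -0.16 without control replicate 2. Myl6b read 5.76 and 5.50 against 4.86 and 5.43. Both shlinc-MYH arrays were above both controls, replicate 2 by a small margin. The control signal of Myl6b in TA was at percentile 46.1 of all genes, where a change in a dim gene is read poorly. The log2 fold change of 0.49 (standard error 0.21, 95% interval -0.018 to 0.99) did not pass, with adjusted p = 0.591 from limma. Averaged over the class, shlinc-MYH replicate 1 was at -0.093 and replicate 2 at 0.85 relative to the control mean, so the difference rested on replicate 2.

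Other slow fiber genes moved with the slow light chains in gastrocnemius. Of 8 slow fiber markers 6 rose in cSix1 KO gastrocnemius and 2 did not pass, beside 0.908% of all genes called higher. Tnnc1, Tnnt1 and Tnni1, the slow troponins C, T and I, had log2 fold changes of 1.40, 1.32 and 1.07, Myh7, the slow heavy chain, 1.15, Tpm3, a slow tropomyosin, 1.03, and Atp2a2, the slow calcium pump, 0.83. The mean of the 8 markers was 11.83, 11.95 and 11.64 on the cSix1 KO arrays and 10.96, 10.51 and 10.89 on the controls, with no overlap. In TA the mean was 8.49 and 8.25 with shlinc-MYH and 7.83 and 6.74 in controls, and 0 of the 8 passed. In 6 of 8 both shlinc-MYH arrays were above both controls, against 16.3% of all genes. Their log2 fold changes were 2.76 for Tnnt1, 2.46 for Tnnc1, 1.53 for Tnni1, 1.11 for Casq2, 0.97 for Myoz2 and 0.76 for Atp2a2. The other 2, Tpm3 and Myh7, went the other way in TA, with log2 fold changes of -0.59 and -0.33. Tpm3 read 7.77 and 7.84 with shlinc-MYH and 9.08 and 7.71 in controls. Its groups overlapped, and its difference rested on control replicate 1. Heart muscle also uses Myl2 and Myl3. The heart markers Nppa, Nppb and Myl7 had control signals at percentiles 31.4, 37.1 and 34.3 of all genes in gastrocnemius and log2 fold changes of 0.0063, 0.0061 and 0.0084. Myh6, the remaining heart marker, rose by 0.77 on the log2 scale (adjusted p = 0.0118 from limma). The part of these markers in the light chain values was not tested.

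RefSeq promoter sequences were printed for the slow chain genes that rose and had a single entry, since these genes moved together. The windows are the 250 bases before the start site in GRCm38.p6, 5′ to 3′ on the strand of the gene, at chr9:110763428-110763677 on the plus strand for Myl3 and chr10:128498686-128498935 on the minus strand for Myl6b. Capitals mark motifs; in Myl3 they are a CArG box, the sequence bound by serum response factor, and in Myl6b no motif searched was found. Myl2 has 2 entries, of which 1 holds CAGCTG.
Myl3: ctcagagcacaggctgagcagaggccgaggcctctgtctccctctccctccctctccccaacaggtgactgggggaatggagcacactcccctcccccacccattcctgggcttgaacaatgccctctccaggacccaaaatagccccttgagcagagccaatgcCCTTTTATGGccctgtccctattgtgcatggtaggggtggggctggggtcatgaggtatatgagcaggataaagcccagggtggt
Myl6b: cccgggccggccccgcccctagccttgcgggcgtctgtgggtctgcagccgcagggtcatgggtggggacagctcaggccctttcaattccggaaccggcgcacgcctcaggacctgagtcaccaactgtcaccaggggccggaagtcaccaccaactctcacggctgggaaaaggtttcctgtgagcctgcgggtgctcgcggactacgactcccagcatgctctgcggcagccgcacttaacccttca
On both strands, 1.47% of 32851 RefSeq promoter windows of the same length held a CArG box, 13.0% held CAGCTG, an E-box, and 2.92% held a MEF2 site.

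The fast light chain genes did not pass in either muscle. Mylpf, the fast regulatory light chain and the substrate of the skeletal muscle kinase, read 11.77, 11.84 and 12.05 in cSix1 KO gastrocnemius and 12.11, 12.07 and 12.16 in controls. All 3 cSix1 KO arrays were below the controls, replicate 3 only just. The log2 fold change was -0.23 (standard error 0.086, 95% interval -0.43 to -0.031), with adjusted p = 0.260 from limma. Myl1, the fast essential light chain, read 13.57, 13.59 and 13.56 against 13.59, 13.60 and 13.72. The groups overlapped and spanned 0.026 and 0.13, and the log2 fold change was -0.061 (standard error 0.066, 95% interval -0.21 to 0.092; adjusted p = 0.773 from limma). After quantile normalization the value for Myl1 was 0.025, so no direction was set.

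In TA the fast chains overlapped between groups. Myl1 read 10.99 and 10.51 with shlinc-MYH and 10.70 and 11.04 in controls. Mylpf read 12.38 and 12.23 against 12.28 and 12.36. For Myl1 shlinc-MYH replicate 2 was below both controls and replicate 1 between them, and for Mylpf the shlinc-MYH arrays lay on either side of the controls. The log2 fold changes were -0.12 for Myl1 (95% interval -0.60 to 0.36; adjusted p = 0.917) and -0.011 for Mylpf (95% interval -0.31 to 0.28; adjusted p = 0.992) from limma. Control signals of these genes were at percentiles 99.3 and 99.9 of all genes in TA and 99.9 and 99.0 in gastrocnemius. In this range array signals, and so differences, can be compressed. The kinase genes Mylk4 and Mylk2, at percentiles 99.8 and 99.1 in control gastrocnemius, had log2 fold changes of -1.71 and -0.68 there and passed. The part of compression in the fast chain values was not tested.

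Myl4, the light chain of embryonic muscle, had the largest log2 fold change of the 10 genes in TA, without passing the test. It read 9.30 and 9.06 with shlinc-MYH and 8.06 and 6.85 in controls. Its control signal was at percentile 86.7 of all genes in TA and 94.9 in gastrocnemius, so it was not dim in adult controls. Both shlinc-MYH arrays were above both controls, and the controls differed from each other by 1.21. The difference was 1.72 on the log2 scale (standard error 0.37, 95% interval 0.84 to 2.61, 3.30-fold), with adjusted p = 0.409 from limma. It was 1.12 without control replicate 2 and 2.33 without control replicate 1.

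In gastrocnemius Myl4 read 11.49, 11.34 and 10.79 in cSix1 KO and 10.90, 10.43 and 10.38 in controls. The groups overlapped, since cSix1 KO replicate 3 lay below control replicate 1. The difference was 0.64 on the log2 scale (standard error 0.20, 95% interval 0.17 to 1.10), with adjusted p = 0.187 from limma. Without cSix1 KO replicate 3 it was 0.85 and passed, with adjusted p = 0.0420.

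Myl4 is also made by regenerating muscle, and the mean of 5 markers of regenerating myoblasts had higher values on the same arrays. This mean was 6.49 and 6.38 with shlinc-MYH and 5.87 and 5.61 in control TA, and 8.08, 7.98 and 7.69 in cSix1 KO and 7.44, 7.42 and 7.49 in control gastrocnemius. Neither muscle showed overlap of the groups in this mean. Of the 5 genes, 2 passed in gastrocnemius in limma, beside 0.908% of all genes called higher there. They were Myog, a myogenic transcription factor (0.82, adjusted p = 0.0395), and Mymk, a membrane protein of myoblast fusion (0.76, adjusted p = 0.0139). In TA 0 passed in limma. Cdh15 had -0.012 in gastrocnemius and Myf5 0.028 in TA. Their part in the Myl4 values was not tested.

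**Figure D3:**
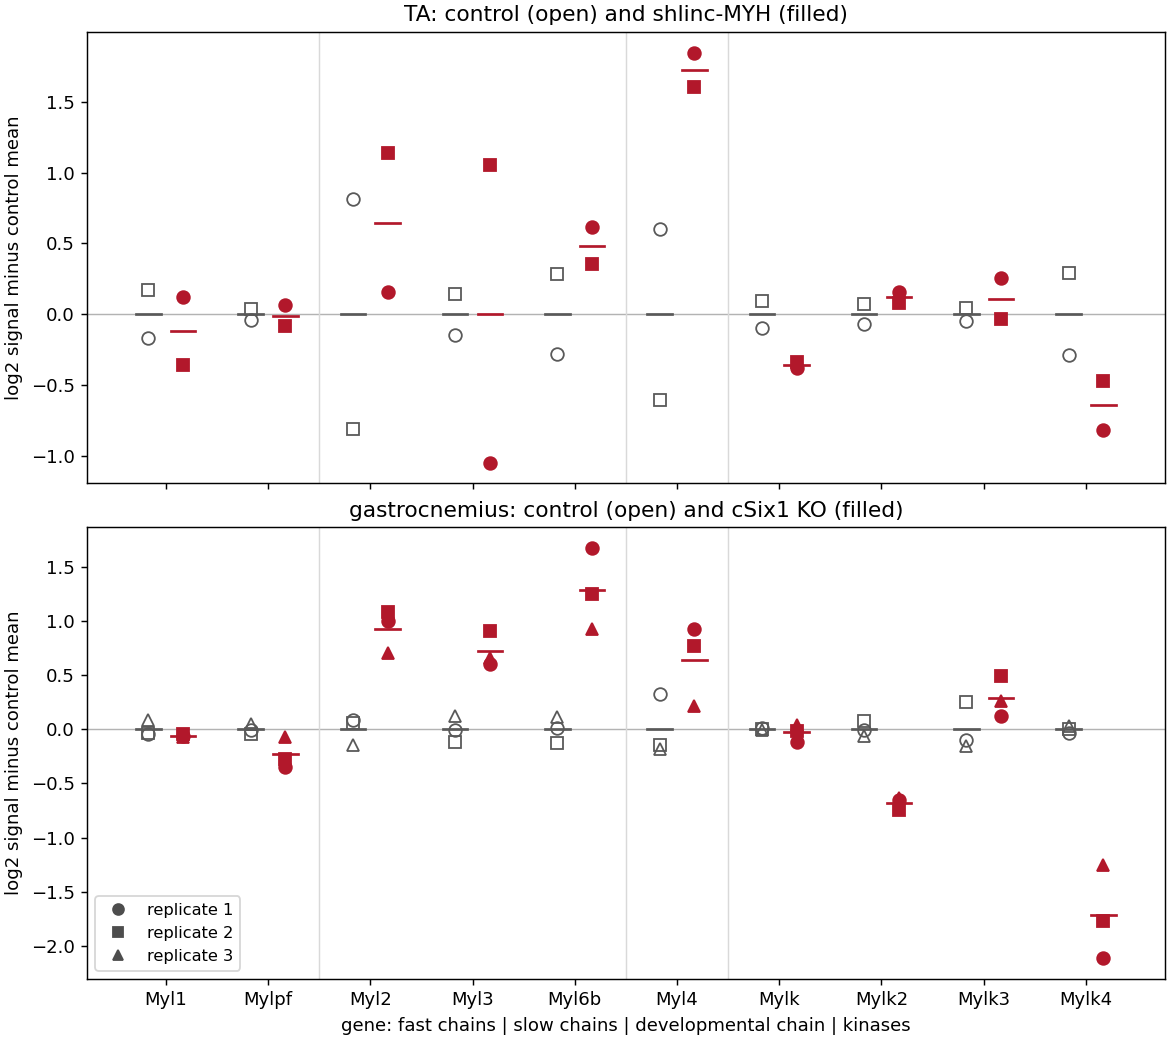
Log2 signal of each of the 10 genes minus the control mean of the same muscle (vertical axis, log2 scale) on every array, with open symbols for control arrays and filled symbols for shlinc-MYH or cSix1 KO arrays; circles, squares and triangles are replicates 1, 2 and 3, and short bars are group means. In gastrocnemius Myl2, Myl3 and Myl6b stand above and Mylk2 and Mylk4 below their controls, and in TA the Myl2, Myl3 and Myl4 arrays of 1 group are far apart.

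Among the kinases, Mylk4, a member of the family whose role in muscle is less well studied, had the largest fall. Its signal was 11.10, 11.45 and 11.96 on the cSix1 KO gastrocnemius arrays and 13.18, 13.22 and 13.25 on the control arrays. The controls spanned 0.073 and the cSix1 KO arrays 0.86, and every cSix1 KO array was more than 1 log2 unit below every control, replicate 3 the least. Mylk4 fell by 1.71 on the log2 scale (standard error 0.19, 95% interval -2.14 to -1.28), leaving 0.306 of the control level, with adjusted p = 0.00737 from limma. Without cSix1 KO replicate 2 the adjusted p was 0.0502 at a log2 fold change of -1.68. In TA Mylk4 read 9.99 and 10.34 with shlinc-MYH and 10.52 and 11.10 in controls. Both shlinc-MYH arrays were below both controls. The log2 fold change of -0.64 (standard error 0.22, 95% interval -1.18 to -0.11) did not pass, with adjusted p = 0.521 from limma.

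Mylk2, the skeletal muscle light chain kinase that phosphorylates the fast regulatory chain, read 11.63, 11.54 and 11.66 in cSix1 KO gastrocnemius and 12.28, 12.36 and 12.22 in controls. The groups stood apart by more than the spread within either. Mylk2 fell by 0.68 on the log2 scale (standard error 0.070, 95% interval -0.84 to -0.52), leaving 0.625 of the control level, with adjusted p = 0.00596 from limma. It passed with each array left out in turn (adjusted p from 0.00769 to 0.0446). In TA Mylk2 read 9.10 and 9.02 with shlinc-MYH and 8.87 and 9.02 in controls. The arrays almost touched, and the log2 fold change of 0.12 (standard error 0.12, 95% interval -0.18 to 0.41) did not pass, with adjusted p = 0.839 from limma.

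The remaining kinases did not pass. Mylk, the kinase of smooth muscle and nonmuscle cells, read 8.08, 8.19 and 8.24 in cSix1 KO and 8.21, 8.20 and 8.19 in control gastrocnemius, a log2 fold change of -0.029 (95% interval -0.18 to 0.13; adjusted p = 0.915). In TA it read 5.76 and 5.80 with shlinc-MYH and 6.04 and 6.23 in controls. Both TA shlinc-MYH arrays were below both controls, and the log2 fold change of -0.36 (standard error 0.13, 95% interval -0.66 to -0.055) had adjusted p = 0.525 from limma. Mylk3, the kinase of heart muscle, read 6.46, 6.83 and 6.60 against 6.24, 6.59 and 6.18 in gastrocnemius (log2 fold change 0.29, 95% interval -0.014 to 0.60, adjusted p = 0.361). In TA it read 5.30 and 5.01 against 5.00 and 5.09 (0.11, 95% interval -0.23 to 0.45, adjusted p = 0.874). The Mylk3 groups overlapped in both muscles, and its control signal was at percentile 38.3 of all genes in gastrocnemius and 43.7 in TA, where a change in a dim gene is read poorly.

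Smooth muscle and endothelium, which express Mylk, are also part of a muscle sample, and their markers had values below 0 in TA with shlinc-MYH, as Mylk did. The mean of 7 smooth muscle markers was 6.07 and 6.36 with shlinc-MYH and 6.83 and 6.24 in controls. Log2 fold changes were below 0 in 7 of 7 genes, as in 11213 of all 19938 genes, and 0 passed in limma. The mean of 6 endothelial markers was 6.41 and 7.15 with shlinc-MYH and 7.53 and 7.47 in controls, and in 6 of 6 genes both shlinc-MYH arrays were below both controls, as in 23.0% of all genes. In gastrocnemius the smooth muscle mean stayed between 8.13 and 8.19 on all 6 arrays, with 0 of 7 genes passing. The part of these markers in the Mylk value of TA was not tested.

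The promoter of Mylk4 had a single RefSeq entry and is shown for the largest change among the kinases, at chr13:32783965-32784214 in GRCm38.p6 on the minus strand, 250 bases before the start and 5′ to 3′ on the strand of the gene. Capitals mark, in order, a MEF2 site, bound by a transcription factor of muscle, and the E-box CAGCTG. This E-box also lay in the windows of Myl1 and Mylpf and in 1 of the 2 entries of Myl2.
Mylk4: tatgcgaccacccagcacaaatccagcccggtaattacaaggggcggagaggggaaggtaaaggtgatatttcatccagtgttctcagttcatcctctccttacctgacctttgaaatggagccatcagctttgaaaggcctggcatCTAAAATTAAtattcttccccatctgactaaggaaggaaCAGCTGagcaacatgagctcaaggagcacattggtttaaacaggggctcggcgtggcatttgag

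The effects of the 2 comparisons were set against each other in 1 limma fit, as the log2 fold change in TA minus that in gastrocnemius. Of the 10 genes 1 passed, Mylk2, in a test that called 0.145% of all genes. Its difference was 0.80 (standard error 0.12, 95% interval 0.52 to 1.07), between 0.12 in TA and -0.68 in gastrocnemius, with adjusted p = 0.0397. This call was kept in 1 of 10 fits that left out an array, the one without TA control replicate 2 (adjusted p = 0.0359), and lost in the other 9 (adjusted p from 0.0610 to 0.131, differences from 0.72 to 0.84). For Mylk4, with values below 0 in both muscles, the difference was 1.07 (standard error 0.32, 95% interval 0.36 to 1.78, adjusted p = 0.252). For Myl4, with the larger value in TA, it was 1.09 (standard error 0.44, 95% interval 0.11 to 2.07, adjusted p = 0.356). The slow light chains had differences of -0.28 for Myl2, -0.72 for Myl3 and -0.80 for Myl6b, with adjusted p from 0.317 to 0.891 and with 95% intervals as wide as -2.07 to 0.63 for Myl3. Without shlinc-MYH replicate 2 the difference for Myl3 was -1.77 and passed, with adjusted p = 0.0197; the shlinc-MYH group is then 1 array, assumed to vary like the other groups.

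The heavy chains, the partners of the light chains in myosin, were read from 9 sarcomeric genes. In cSix1 KO gastrocnemius 4 rose and 0 fell, beside 0.908% of all genes called higher and 0.833% called lower. The median log2 fold change of the 9 was 0.49, beside 0.0080 for all genes. Myh7, the slow heavy chain, read 12.48, 12.57 and 12.38 against 11.51, 11.05 and 11.42. Its arrays did not overlap, and it rose by 1.15 on the log2 scale (standard error 0.12), with adjusted p = 0.00690 from limma. The others that rose were Myh6, the alpha cardiac chain (0.77, adjusted p = 0.0118), Myh8, the perinatal chain (0.83, adjusted p = 0.0483), and Myh7b, a slow-type chain (0.49, adjusted p = 0.0460). Myh4, the fast IIB chain, read 13.49, 13.55 and 13.53 against 13.63, 13.60 and 13.69, a log2 fold change of -0.12 that did not pass (adjusted p = 0.447).

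In TA 0 of the 9 heavy chains passed. Myh7 read 5.02 and 4.98 with shlinc-MYH and 5.68 and 4.98 in controls. This is -0.33 on the log2 scale (standard error 0.23), with adjusted p = 0.740 from limma. The difference rested on control replicate 1, since control replicate 2 read like the shlinc-MYH arrays. In TA the control signal of Myh7 was only at percentile 50.5 of all genes. Its difference between the comparisons, which carries the same limit, was -1.48, with adjusted p = 0.0632 from limma. The developmental heavy chains had the largest values: Myh3, the embryonic chain, read 7.80 and 7.26 against 5.89 and 5.55 (1.81, adjusted p = 0.140), and Myh8 read 9.17 and 8.01 against 7.20 and 6.75 (1.61, adjusted p = 0.431). Both shlinc-MYH arrays were above both controls in Myh3 and Myh8, as they were in Myl4 and in 16.3% of all genes.

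**Figure D4:**
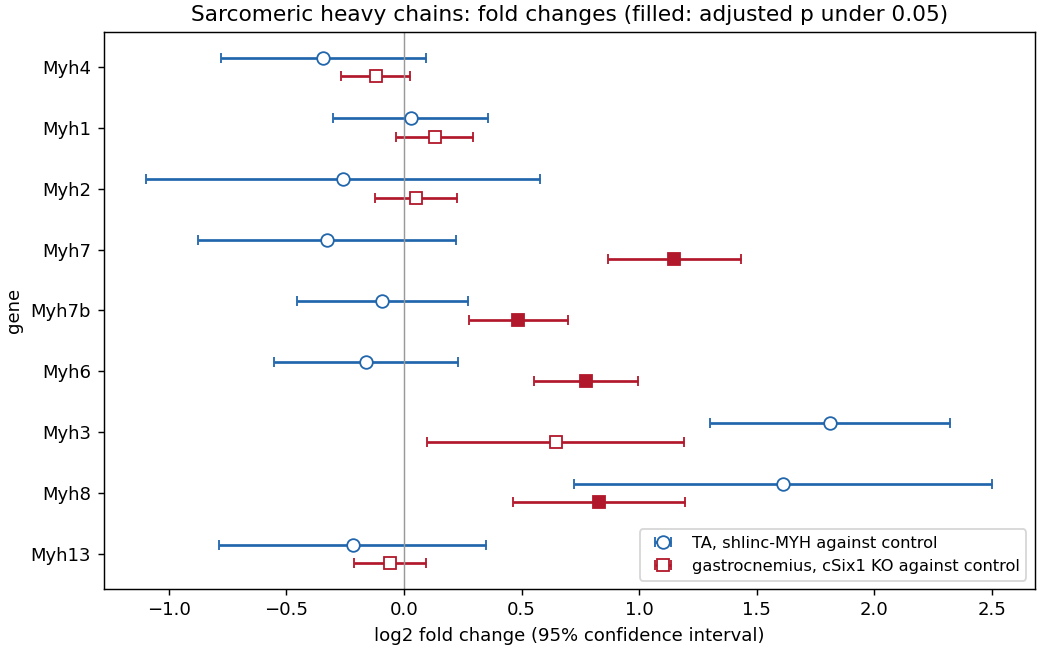
Log2 fold change (horizontal axis, log2 scale) of 9 sarcomeric myosin heavy chain genes in shlinc-MYH against control TA (circles) and in cSix1 KO against control gastrocnemius (squares), with 95% confidence intervals from limma; filled symbols passed at an adjusted p under 0.05. The filled symbols are Myh6, Myh7, Myh7b and Myh8 in gastrocnemius, and the largest values in TA are those of Myh3 (1.81) and Myh8 (1.61).

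Among genes that act with the kinases 2 passed, both lower in gastrocnemius, where 0.833% of all genes were called lower. Of 4 calmodulin genes measured, 1 fell in cSix1 KO gastrocnemius, Calm3, at -0.46 on the log2 scale (standard error 0.074) with adjusted p = 0.0283 from limma. It read 10.38, 10.35 and 10.47 against 10.76, 10.93 and 10.89, with no overlap. Of 8 genes of the light chain phosphatase and its inhibitors, 1 fell, Ppp1r14c, which encodes an inhibitor of the phosphatase: 8.92, 8.87 and 8.95 against 9.42, 9.44 and 9.26, or -0.46 on the log2 scale (standard error 0.073), with adjusted p = 0.0263. In TA 0 of these 12 genes passed, with medians of -0.065 for the calmodulins and -0.016 for the phosphatase, beside -0.025 for all genes.

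Other kinases able to phosphorylate light chains were measured by 8 genes, and 0 passed in either muscle. Rock2, also on this list, was not measured. All 8 had log2 fold changes above 0 in cSix1 KO gastrocnemius, from 0.051 to 0.54, with a median of 0.17. Of all 19938 genes, 10521 were above 0 there. The largest was Dapk1, a death-associated kinase, at 0.54 (standard error 0.15, adjusted p = 0.135 from limma), and its 3 cSix1 KO arrays were above the controls. Of 5 myosin binding proteins 0 passed; in gastrocnemius the largest values were 0.26 for Mybpc1, the slow binding protein C (adjusted p = 0.171), -0.26 for Mybph, binding protein H (adjusted p = 0.374), and -0.25 for Mybpc2, the fast binding protein C (adjusted p = 0.117). In TA Mybph had the largest value of the 5, at 0.47 (adjusted p = 0.542).

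Of 6 other light chain genes (Myl6, Myl7, Myl9, Myl10, Myl12a and Myl12b) 0 passed in either muscle. They include chains of nonmuscle and smooth muscle myosin and of the atrium. Myl12a and Myl12b, regulatory chains of nonmuscle myosin, had log2 fold changes of 0.31 and 0.28 in gastrocnemius and of 0.64 and -0.43 in TA. Myl12a read 10.49 and 10.47 with shlinc-MYH and 9.88 and 9.80 in control TA, with adjusted p = 0.307 from limma. Both shlinc-MYH arrays were thus above the controls in Myl12a and below them in Myl12b, which read 8.65 and 8.96 against 9.29 and 9.18. Myl9, the regulatory chain of smooth muscle, had -0.77 in TA (7.08 and 7.34 against 8.51 and 7.44) and -0.24 in gastrocnemius.

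The arrays of cSix1 KO gastrocnemius were not equally far from the controls. In 6 of the 10 genes (Myl2, Myl4, Myl6b, Mylk2, Mylk4 and Mylpf) replicate 3 was the cSix1 KO array nearest to the control mean, and replicates 1 and 2 were so in 2 genes each. Averaged over the kinases, replicates 1, 2 and 3 lay at -0.69, -0.51 and -0.40 relative to the control mean. Without replicate 3, 6 of the 10 genes passed in limma, the 5 named above and Myl4, and 560 of all genes passed in place of 347.

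For genes with an absolute log2 fold change of at least 1 in either muscle, the 3 genes most alike were found by the root mean square difference over the 10 arrays, each array taken relative to the control mean of its muscle. This is a description over 10 arrays, many of them sharing a group. For Myl6b these were Psat1 (0.22 on the log2 scale), Galnt5 (0.22) and Ehd3 (0.22), with log2 fold changes in gastrocnemius of 1.01, 1.23 and 1.13. For Myl4 they were Myog (0.20), Myh3 (0.25) and Ttc9 (0.27), with log2 fold changes in TA of 1.60, 1.81 and 1.81. For Mylk4 they were Kcng4, a potassium channel subunit (0.25), Gpd2, the mitochondrial glycerol-3-phosphate dehydrogenase (0.29), and Stxbp4 (0.29), which stood at -1.73, -1.57 and -1.58 in gastrocnemius and at -0.35, -0.46 and -0.17 in TA.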

How the data were processed

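RNA was measured on 10 arrays: TA with shlinc-MYH or control vector (2 each) and gastrocnemius of cSix1 KO or control mice (3 each), grouped by the sample labels. The authors deposited log2 signals, 1 for each probe set, after RMA, which subtracts background, equalizes the arrays and summarizes probes. The processing notes name RMA and Partek, and the methods RMA in R; no version is given in the sources used here. Labels and methods differ on the amplification kit and RNA amount. RMA compresses bright signals and hides a shift of all genes. Of 35556 probe sets, 21789 with 1 symbol gave 19938 genes, and the brightest probe set was used for the 999 genes with several. Limma 3.58.1 in R 4.3.3 (lmFit, eBayes) was run per muscle, and over all 10 arrays for the difference, with Benjamini-Hochberg adjustment over all genes and a threshold of 0.05. The script was tested on simulated data. Arrays give no read depth, and their number limits the precision. The genes and lists were chosen with earlier results of these data known. Named were the 10 genes and, from each list, called genes or up to 3 with the largest changes. A few list members with small changes were named beside them. Alternatives were quantile normalization, median centring, a filter on dim genes, the mean of probe sets, 1 fit of all arrays, a robust trended prior, a replicate block, the methods' t-test and leaving out each array. Python 3.11.15, pandas 2.3.3 and matplotlib 3.10.9 were used. Promoters came from RefSeq (GRCm38.p6). A gene is not reported here.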

Additional observations from a re-analysis of the deposited data

Results flagged for a closer look

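Mylk2, the skeletal muscle light chain kinase, differed between the comparisons by a test of the difference itself: its log2 fold change was 0.80 higher in TA with shlinc-MYH (0.12) than in cSix1 KO gastrocnemius (-0.68), with adjusted p = 0.0397 from limma. It did not pass in 9 of 10 fits that left out an array (adjusted p up to 0.131) or with the replicate number as a block (adjusted p = 0.133). The arrays of the 2 muscles have separate signal ranges, and muscle, treatment and array set cannot be told apart in this difference.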

How the results depend on the processing

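In TA 0 of the 10 genes passed under any alternative. In gastrocnemius the 5 calls were kept by quantile normalization, centring, the filter on dim genes, the mean of probe sets and the robust trended prior. All 10 arrays in 1 fit left 3, the methods' t-test left 0 after Benjamini-Hochberg adjustment (4 of all genes) and 5 at an unadjusted p under 0.05 (2603 of all genes), and leaving out an array gave 1 to 6. The difference between the comparisons gave 0 to 1 with an array left out. With the replicate number as a block 4 of the 10 passed in gastrocnemius (Myl3 lost, adjusted p = 0.0589; 186 of all genes against 347), 0 in TA and 0 for the difference (Mylk2 at 0.80, adjusted p = 0.133). Deviations of same-numbered arrays correlated at 0.19 in TA and at 0.22, -0.14 and 0.08 in gastrocnemius, and neither the labels nor the methods say which arrays share an animal. The numbers were not taken as pairs; in TA, with 2 pairs, this does not show that the arrays are unpaired. The cause of the lost calls was not tested, beyond the smaller number of arrays where 1 was left out.

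Counts over all genes moved by over 1.5 times in TA to 10 after centring, 131 with all 10 arrays in 1 fit and 5 with the block, in place of 3, and to 0 with an array left out or by the adjusted t-test, with 1383 by the t-test unadjusted. In gastrocnemius they were 543 with the robust prior and 51 to 560 with an array left out, and for the difference 48 with the robust prior, 16 without dim genes and 6 to 100 with an array left out, in place of 29.

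Values near 0 changed sign. In TA Mylpf was 0.071 after quantile normalization and 0.020 after centring, and Myl3 was -0.030 after quantile normalization. In gastrocnemius Myl1 was 0.025 after quantile normalization, and its difference between the comparisons was 0.019 after centring. With an array left out the TA values ran from -0.36 to 0.12 for Myl1, -0.085 to 0.062 for Mylpf, -0.16 to 1.46 for Myl2, -1.05 to 1.05 for Myl3 and -0.032 to 0.25 for Mylk3. Mylk in gastrocnemius ran from -0.063 to 0.014. The differences ran from -0.30 to 0.18 for Myl1, -1.09 to 0.53 for Myl2 and -1.77 to 0.33 for Myl3. Single reversals were 0.048 and 0.12 (Myl1, without control or shlinc-MYH replicate 2), 0.027 and 0.062 (Mylpf, the same arrays), -0.14 (Myl3, without control replicate 1), 0.11 and 0.18 (difference of Myl1) and 0.53 and 0.21 (difference of Myl2, without control or shlinc-MYH replicate 1). Mylk3 had no value under the filter on dim genes.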
